A study of Mus musculus with 14 samples.

Results

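The genes of the unfolded protein response and of the secretory machinery of the endoplasmic reticulum (ER) were followed in splenic germinal centre B cells with 2, 1 or 0 floxed alleles of Crebbp. The 33 members were taken from a list of ER stress and secretion genes, each read from its brightest probe set that names a single gene. They are 33 of 18193 genes on the array, and 32 of them passed the filter on dim genes (a mean log2 intensity above 6.43), together with 10225 genes in all. Fkbp11 did not pass.

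Germinal centre B cells are activated B cells that divide and mutate their antibody genes in the spleen after immunisation. Crebbp encodes a lysine acetyltransferase that acts as a transcriptional coactivator. All mice carried the Cg1-Cre transgene, which deletes floxed DNA in B cells once they have been activated, so the WT mice carried the Cre as well. KO mice were Crebbpfl/fl Cg1-Cre (n = 5, 3 males), HET mice were Crebbpfl/+ Cg1-Cre (n = 5, 2 males) and WT mice were Crebbp+/+ Cg1-Cre (n = 4, 1 male). All were C57BL/6x129Sv mice, 8 to 12 weeks old, given sheep red blood cells as antigen on day 0 and again on day 5, and spleens were taken on day 12. B220+CD95+PNA+ cells of each spleen were sorted and read on 1 Affymetrix mouse genome array per mouse. Values below are log2 intensities of a probe set, and a change is a difference in log2 intensity estimated by limma with sex held as a term. Adjusted p-values are Benjamini-Hochberg values over the 10225 genes, with a threshold of 0.05.

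The ER folds, glycosylates and exports secreted and membrane proteins, which in a B cell include immunoglobulin. When unfolded proteins build up there, 3 sensors in its membrane respond. IRE1 splices the mRNA of the transcription factor XBP1, ATF6 is cut to release a transcription factor, and PERK slows translation while favouring that of ATF4, which induces amino acid and stress genes. The ATF6 and XBP1 arms raise ER chaperones and the machinery that pulls misfolded proteins out for degradation. The programme is largest when B cells become antibody-secreting plasma cells, and germinal centre cells stand upstream of that step. Splicing of Xbp1, cleavage of ATF6 and the activity of PERK were not measured here, since the arrays read mRNA levels.

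The sorted cells carried the markers of their label. All 8 germinal centre genes with a probe set, such as Rgs13 and Fas, passed the filter, and their mean lay between 12.05 and 12.36 in KO arrays, 12.18 and 12.38 in HET arrays, and 12.29 and 12.40 in WT arrays. Markers of other cells that passed the filter were 3 of 9 for T cells, 3 of 10 for macrophages and monocytes, 4 of 7 for dendritic cells, 2 of 7 for neutrophils, 1 of 6 for erythroid cells and 1 of 7 for follicular dendritic and stromal cells. Of the markers of naive, marginal zone and follicular B cells, 7 of 8 passed it, and of those of plasma cells and plasmablasts 10 of 11. Passing the filter thus does not set germinal centre cells apart from other cells of the B lineage. On its brightest probe set Crebbp had log2 intensities of 12.12, 12.05, 11.71, 12.15 and 12.18 in KO 1 to KO 5, 12.25, 12.10, 12.15, 12.43 and 12.40 in HET 1 to HET 5, and 12.42, 12.40, 12.36 and 12.44 in WT 1 to WT 4. Every KO array was below every WT array, and the change was -0.41 (SE 0.09, adjusted p = 0.0372). When each probe set was tested on its own by limma, this one had an adjusted p of 0.0719, and the one with the largest change was at -0.86 (SE 0.09, 55% of the WT intensity, adjusted p = 0.000822). Where these probes lie relative to the floxed exons was not analysed here.

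Many members are known targets of the stress transcription factors, so the 250 bases before the RefSeq start were read for 28 of the 33 members (29 windows, GRCm38.p6). Hyou1, Manf, Atf6, Sec61a1 and Sec11c had no entry. The motifs searched on both strands were the ER stress element ERSE (CCAAT and CCACG with any 9 bases between them), to which ATF6 binds together with NF-Y, its variant ERSE-II (ATTGG and CCACG with any 1 base between them), the unfolded protein response element UPRE (TGACGTGG), the cyclic AMP response element CRE (TGACGTCA), to which CREB binds, and the C/EBP-ATF element CARE (TGATGCAA), to which ATF4 binds. ERSE, ERSE-II and UPRE share the letters CCACG, but no matches of different motifs overlapped in these windows (0 overlaps). The 5 windows below are shown because they belong to the member with the largest change, Herpud1, to 3 named members with an ERSE and to the other member with a CARE. They run 5′ to 3′ on the strand of the gene and end at the base before its start, and the capitals mark the matched motif or its reverse complement.
Herpud1, chr8:94386179-94386428, plus strand: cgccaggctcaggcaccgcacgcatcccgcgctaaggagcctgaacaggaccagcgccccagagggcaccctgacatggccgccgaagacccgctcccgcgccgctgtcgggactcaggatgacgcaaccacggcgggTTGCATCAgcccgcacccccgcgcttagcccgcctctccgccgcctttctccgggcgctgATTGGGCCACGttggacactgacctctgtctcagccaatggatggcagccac
Hspa5, chr2:34771840-34772089, plus strand: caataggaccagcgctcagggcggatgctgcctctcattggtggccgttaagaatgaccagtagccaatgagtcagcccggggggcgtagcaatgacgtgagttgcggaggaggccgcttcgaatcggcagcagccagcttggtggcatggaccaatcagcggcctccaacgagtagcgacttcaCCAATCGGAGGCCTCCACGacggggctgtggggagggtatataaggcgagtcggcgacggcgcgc
Pdia6, chr12:17266339-17266588, plus strand: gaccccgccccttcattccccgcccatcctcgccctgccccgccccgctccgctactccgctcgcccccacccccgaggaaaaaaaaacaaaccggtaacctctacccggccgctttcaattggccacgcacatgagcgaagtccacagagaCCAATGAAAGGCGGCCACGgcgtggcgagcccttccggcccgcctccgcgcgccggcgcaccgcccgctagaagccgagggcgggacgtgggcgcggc
Calr, chr8:84846932-84847181, minus strand: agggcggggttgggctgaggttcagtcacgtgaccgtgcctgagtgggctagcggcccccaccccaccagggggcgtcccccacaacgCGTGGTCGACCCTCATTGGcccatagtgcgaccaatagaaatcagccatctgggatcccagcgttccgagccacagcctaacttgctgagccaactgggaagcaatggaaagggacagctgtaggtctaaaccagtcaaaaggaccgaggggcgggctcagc
Chac1, chr2:119350992-119351241, plus strand: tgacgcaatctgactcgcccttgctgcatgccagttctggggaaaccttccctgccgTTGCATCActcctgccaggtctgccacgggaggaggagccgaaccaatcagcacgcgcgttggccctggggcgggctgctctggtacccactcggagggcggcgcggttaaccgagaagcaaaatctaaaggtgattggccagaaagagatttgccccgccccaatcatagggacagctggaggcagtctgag

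In the Herpud1 window the ERSE-II lay 52 to 42 bases before the start and a CARE, on the opposite strand, lay 112 to 105 bases before it. The ERSE of Hspa5 lay 65 to 47 bases before the start, that of Pdia6 98 to 80 bases and that of Calr, on the opposite strand, 162 to 144 bases. The CARE of Chac1, on the opposite strand, lay 193 to 186 bases before the start. A full ERSE lay within the window for 7 members, Hspa5, Hsp90b1, Dnajc3, Creld2, Calr, Canx and Pdia6. This is 24.1% of the member windows against 0.113% of all 32851 windows. The members were listed as ER stress and secretion genes, many of them known targets, so the larger share follows from that choice and is no test. The Herpud1 window ended in CCAAT and CCAC, spaced as in an ERSE. The last base of that motif would lie past the window and was not read, so an ERSE there was not tested. Herpud1 was the member with an ERSE-II, a motif found in 10 of all windows (0.0304%). The UPRE was found in Sec24d (0.563% of all windows), the CARE in Herpud1 and Chac1 (0.791%), and the CRE in 0 members (1.55%). A match describes these letters, not a bound site.

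In KO against WT mice 0 of the 32 members passed the test, while 2.44% of all genes tested did (249 genes by limma). At an unadjusted p under 0.05 there were 2 members, Herpud1 and Sec11c, or 6.25% of the members against 13.1% of all genes. The changes were small and mostly below 0. They were negative for 26 of 32 members with a median of -0.07, while 51% of all genes tested were negative with a median of -0.00. The smallest was -0.52 for Herpud1 and the largest 0.18 for Sec63. The 95% interval lay within 0.5 log2 units of 0 for 28 of the 32 members and within 1 unit for all 32, with a median SE of 0.09. The tally of signs leaned on KO 3 and WT 4. Without KO 3 there were 18 of 32 members below 0, with a median of -0.02. Without WT 4 there were 20, with a median of -0.04, against 0.02 over all genes. With no sex term there were 24, with a median of -0.04.

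In HET against WT mice 0 of 32 members passed, as did 0% of all genes, and 0 members had an unadjusted p under 0.05, against 2.74% of all genes (limma). The changes were negative for 24 of 32 members, with a median of -0.03, and ran between -0.17 and 0.18. Without WT 4 there were 18 negative, with a median of -0.01, and in females alone 15, with a median of 0.01. In KO against HET mice 0 of 32 members passed, against 0.264% of all genes, and 1 member, Herpud1, had an unadjusted p under 0.05, against 6.39% of all genes (limma). These changes were negative for 24 members, with a median of -0.04, but for 14 without KO 3, with a median of 0.01, and for 16 with array weights, with a median of -0.00. The contrasts share arrays, so their signs are not independent.

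A slope over 0, 1 and 2 floxed alleles was fitted as well. Here 1 of 32 members passed, Herpud1, which fell per allele, against 3.04% of all genes in either direction and 1.62% in the lower one. At an unadjusted p under 0.05 there were 2 members, Herpud1 and Sec11c, against 14.2% of all genes. The slope was negative for 26 of 32 members, with a median of -0.04 per allele, and for 19 without KO 3, with a median of -0.01.

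**Figure D1:**
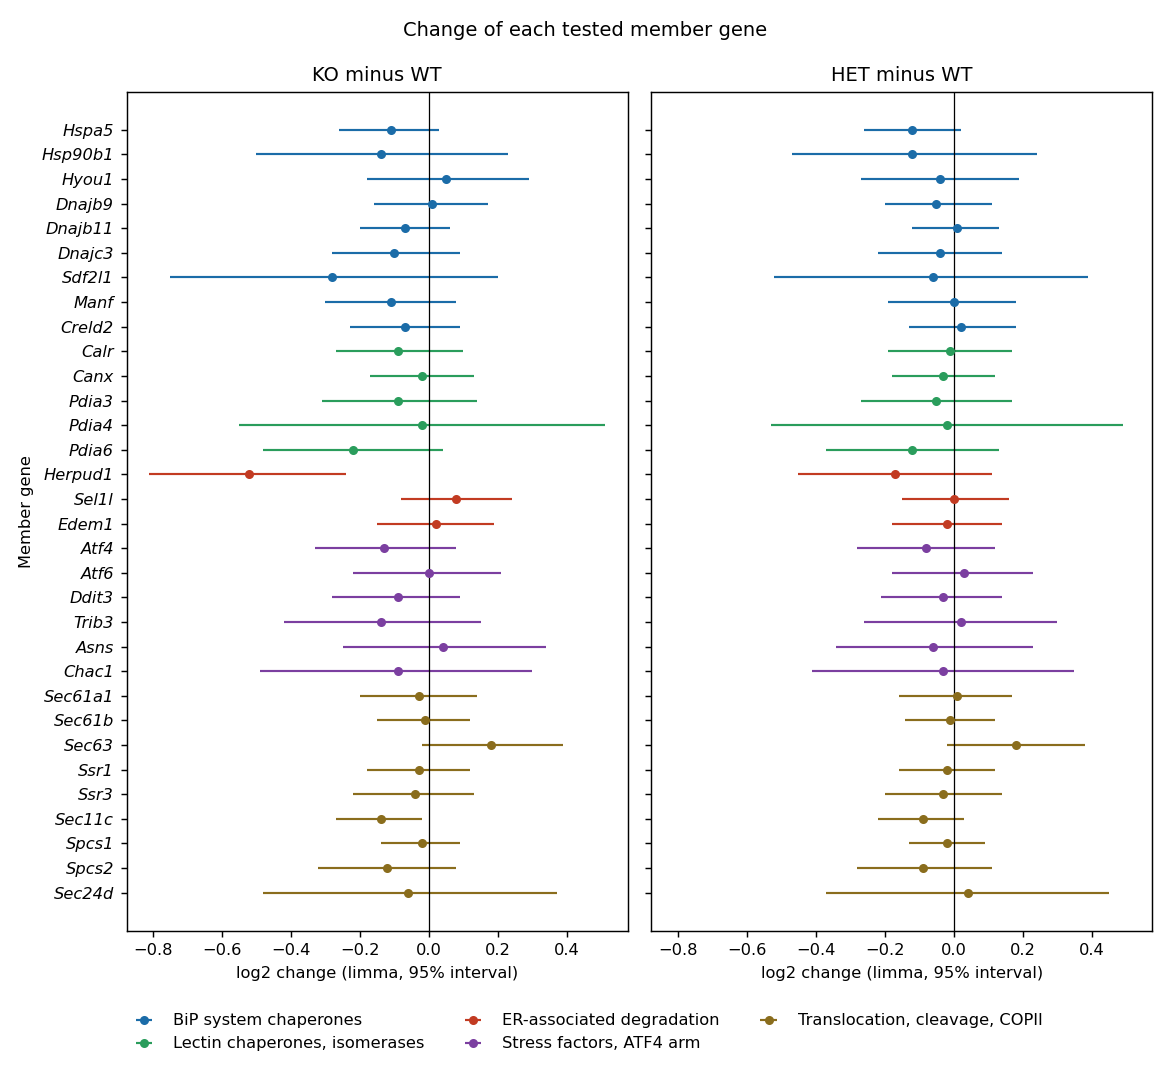
Change of each of the 32 tested members in log2 intensity, KO minus WT on the left and HET minus WT on the right, with points for the limma estimate, bars for its 95% interval and colours for the role of the gene. Herpud1 at -0.52 and Sec11c at -0.14 are the 2 members whose KO minus WT interval stays below 0, and every HET minus WT interval crosses 0.

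Of the 3 members that serve ER-associated degradation, Herpud1 was the one with a change per allele. Herpud1 is an ER membrane protein that gathers the ubiquitin ligase complex which exports misfolded proteins, and its gene is a target of several arms of the response. Its log2 intensities were 11.09, 11.21, 10.83, 11.50 and 11.56 in KO 1 to KO 5, 11.61, 11.58, 11.41, 11.57 and 11.62 in HET 1 to HET 5, and 11.59, 11.56, 11.70 and 11.97 in WT 1 to WT 4. KO 3 was the lowest array and WT 4 the highest, 4 of the 5 KO arrays were below every WT array, and KO 5 was level with WT 2. The means were 11.24 ± 0.30 in KO mice, 11.56 ± 0.08 in HET mice and 11.71 ± 0.19 in WT mice (SD, n = 5, 5 and 4). Herpud1 fell by 0.26 log2 units per floxed allele (SE 0.07, limma adjusted p = 0.0431). KO minus WT was -0.52 (SE 0.13, 95% interval -0.81 to -0.24, 69.7% of the WT intensity), with an unadjusted p of 0.00167 and an adjusted p of 0.0591 in limma. HET minus WT was -0.17 (SE 0.13, adjusted p = 1) and KO minus HET was -0.35 (SE 0.12, adjusted p = 0.474).

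A second probe set of Herpud1 gave 9.76, 10.03, 9.66, 10.23 and 10.26 in KO 1 to KO 5, 10.33, 10.33, 10.18, 10.29 and 10.22 in HET 1 to HET 5, and 10.37, 10.36, 10.45 and 10.69 in WT 1 to WT 4. On it every KO array and every HET array was below every WT array, while KO and HET arrays overlapped. Over all genes tested, groups did not overlap for 6.51% in KO against WT and 1.50% in HET against WT, in either direction. That share was not computed over all probe sets. The KO minus WT change of this second probe set was -0.52 (SE 0.12). When each of 22518 probe sets was tested on its own by limma, the adjusted p for KO against WT was 0.072 on this probe set and 0.107 on the brighter one, and for the slope it was 0.0489 and 0.0786.

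The size of the change leaned on KO 3 and WT 4. Without both, a choice made after seeing the data, KO minus WT for Herpud1 was -0.24 (SE 0.13, adjusted p = 0.44) and the slope -0.13 (adjusted p = 0.386). With 1 array left out at a time, the slope passed in 3 of 14 fits (without KO 4, KO 5 or HET 5) and its adjusted p ran between 0.0173 and 0.158. In the other 11 fits the slope did not pass, while its size, -0.20 to -0.28 per allele, stayed near the -0.26 over all arrays, and it was smallest without KO 3. KO against WT passed in 2 of 14, at 0.0143 without KO 4 and 0.0369 without KO 5, and its change was -0.40 without KO 3 and -0.43 without WT 4.

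Beside this, the 13 immediate early genes tested were all negative in KO against WT, with a median of -0.51. Of these, Nr4a1 changed by -0.86 (SE 0.10, limma adjusted p = 0.000848) and Egr3 by -0.64 (SE 0.14, adjusted p = 0.0271). Nr4a1 was dim, and its KO arrays, at 6.02 to 6.41, lay below the filter at 6.43. The mean over all 16 genes on the array was 9.42, 8.67, 8.77, 8.83 and 9.01 in KO 1 to KO 5, 9.52, 9.68, 8.68, 9.03 and 8.79 in HET 1 to HET 5, and 9.54, 9.54, 9.69 and 9.13 in WT 1 to WT 4. It was highest among KO arrays in KO 1 and lowest among WT arrays in WT 4, where Herpud1 was at 11.09 and 11.97. HET 3 was the lowest HET array for both. The part of these genes in the value of Herpud1 was not tested.

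Sel1l, the adaptor of the ubiquitin ligase HRD1, had 12.09, 12.07, 12.28, 11.99 and 12.09 in KO 1 to KO 5, 12.09, 12.05, 12.09, 12.05 and 11.88 in HET 1 to HET 5, and 12.06, 12.12, 12.03 and 11.93 in WT 1 to WT 4. Groups overlapped, and KO minus WT was 0.08 (SE 0.07, adjusted p = 0.757). It turned to -0.07 on its most variable probe set, which was dim (mean 6.96 against 12.06 on the brightest). Edem1, a lectin that hands misfolded glycoproteins to degradation, changed by 0.02 in KO against WT (SE 0.08, adjusted p = 0.961).

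Among the 9 chaperones and co-chaperones of the BiP system 0 passed, and 7 were negative in KO against WT, with a median of -0.10. BiP, encoded by Hspa5, binds unfolded chains in the ER and holds the 3 sensors inactive at rest. Hspa5 gave 12.49, 12.45, 12.41, 12.52 and 12.54 in KO 1 to KO 5, 12.50, 12.57, 12.36, 12.40 and 12.50 in HET 1 to HET 5, and 12.50, 12.50, 12.63 and 12.70 in WT 1 to WT 4. KO and HET arrays lay in one range, WT 1 and WT 2 fell within it, and WT 3 and WT 4 lay above it. KO minus WT was -0.11 (SE 0.07, 95% interval -0.26 to 0.03, adjusted p = 0.538), and HET minus WT was -0.12 (SE 0.06, interval -0.26 to 0.02, adjusted p = 1).

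Sdf2l1, which keeps BiP client proteins soluble together with a J-domain partner, had the widest spread over arrays, a range of 1.38. Its log2 intensities were 9.07, 9.29, 8.32, 9.49 and 9.58 in KO 1 to KO 5, 9.27, 9.45, 8.90, 9.41 and 9.48 in HET 1 to HET 5, and 9.20, 9.42, 8.96 and 9.70 in WT 1 to WT 4. KO 3 was far below all others, and the groups overlapped. The change in KO against WT was -0.28 (SE 0.22, adjusted p = 0.699), and it was -0.03 without KO 3, -0.48 without KO 4 and 0.18 without both KO 3 and WT 4. Dnajb11, a J-domain co-chaperone of BiP, gave 10.96, 10.99, 10.85, 10.94 and 11.04 in KO 1 to KO 5, 11.08, 11.09, 10.96, 10.99 and 10.93 in HET 1 to HET 5, and 10.98, 11.00, 10.87 and 11.11 in WT 1 to WT 4. These groups overlapped too, with KO minus WT at -0.07 (SE 0.06, adjusted p = 0.748) and KO minus HET at -0.07 (SE 0.05).

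The other 6 genes of the BiP system overlapped between all groups. Hsp90b1, the ER form of the Hsp90 chaperone, changed by -0.14 in KO against WT (SE 0.17). Manf, a secreted stress protein, changed by -0.11, Dnajc3 by -0.10 and Creld2 by -0.07. Dnajb9 at 0.01 and Hyou1, an exchange factor of BiP, at 0.05 were above 0. Adjusted p-values in this group of 9 ran between 0.538 and 0.991.

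Of the 6 lectin chaperones and isomerases 5 were tested, 0 passed and all 5 were negative in KO against WT, with a median of -0.09. Pdia6 encodes a disulphide isomerase that also binds the sensor IRE1. It had 10.01, 10.18, 10.16, 10.29 and 10.53 in KO 1 to KO 5, 10.27, 10.58, 10.33, 10.14 and 10.36 in HET 1 to HET 5, and 10.35, 10.34, 10.43 and 10.71 in WT 1 to WT 4. KO 1 was the lowest array and WT 4 the highest, and the groups overlapped. For Pdia6 KO minus WT was -0.22 (SE 0.12, interval -0.48 to 0.04, adjusted p = 0.488) and HET minus WT -0.12 (SE 0.12). The KO minus WT value was -0.08 without WT 4 and -0.03 on the most variable probe set, which was dim (mean 6.66 against 10.33 on the brightest). Calr, the soluble lectin chaperone calreticulin, had 12.79, 12.92, 12.60, 12.99 and 12.93 in KO 1 to KO 5, 12.88, 12.94, 12.90, 13.04 and 12.82 in HET 1 to HET 5, and 12.86, 12.95, 13.04 and 12.84 in WT 1 to WT 4. KO 3 lay below every other array, the rest mixed, and KO minus WT was -0.09 (SE 0.09, adjusted p = 0.793).

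Canx, the membrane-bound partner of calreticulin, changed by -0.02 in KO against WT (SE 0.07), Pdia3 by -0.09 (SE 0.11) and Pdia4 by -0.02 (SE 0.25). Pdia4 had the widest spread within groups of all members, an SD of 0.39. Fkbp11, a prolyl isomerase abundant in plasma cells, was dim and not tested. It averaged 5.88 ± 0.26 in KO mice, 5.96 ± 0.34 in HET mice and 5.98 ± 0.35 in WT mice (SD).

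**Figure D2:**
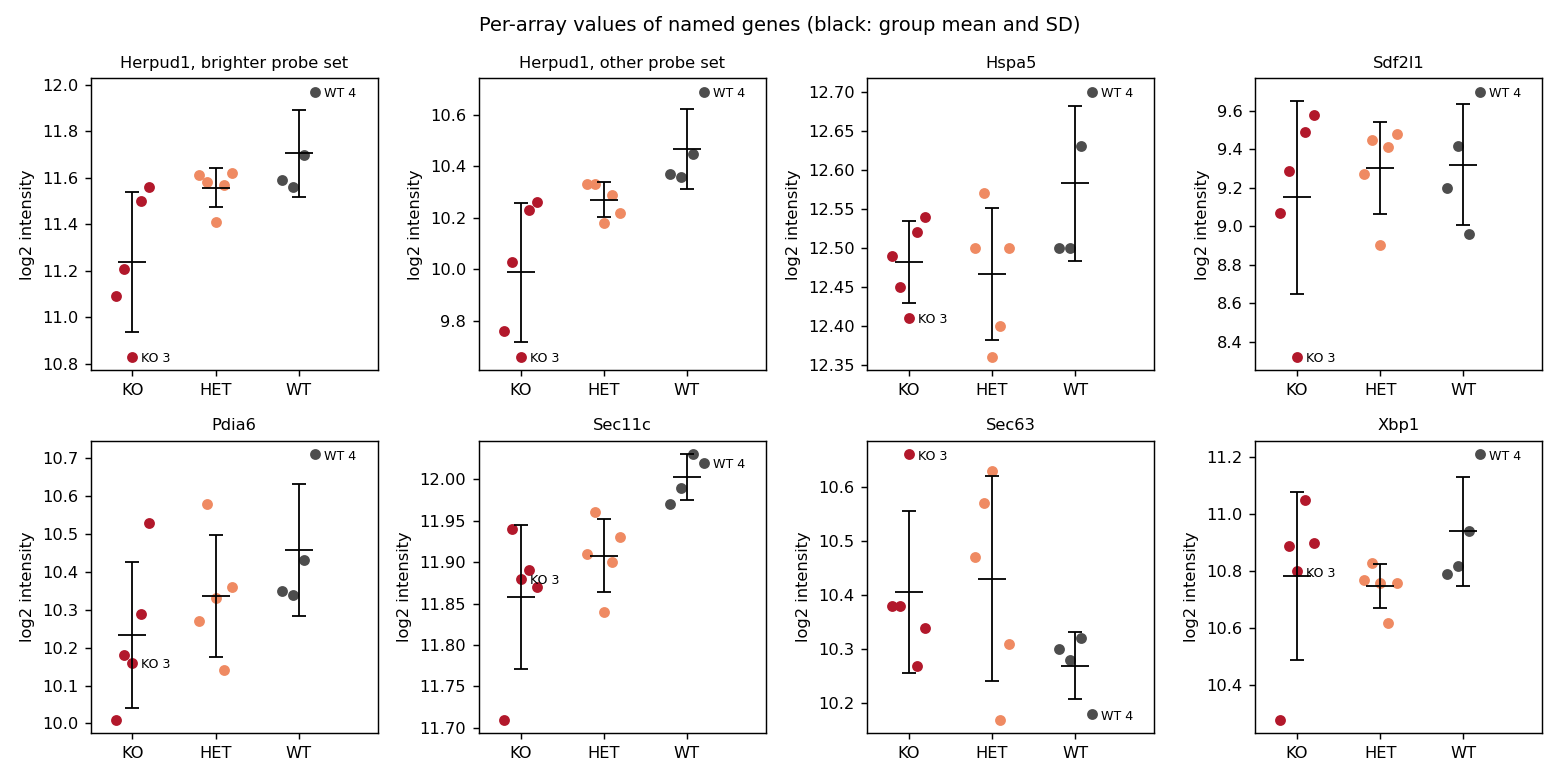
Log2 intensity of named genes in each array, KO left, then HET and WT, with points for single mice and black bars for the group mean and SD, and each panel with its own axis. Both Herpud1 probe sets have KO 3 lowest and WT 4 highest, and Sec11c has all WT arrays above all KO and HET arrays by a small margin.

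The ATF4 arm of the response had 6 members with stress transcription factors, of which 0 passed and 5 were negative in KO against WT, with a median of -0.09. Atf4, its central transcription factor, had 12.58, 12.49, 12.50, 12.74 and 12.83 in KO 1 to KO 5, 12.66, 12.89, 12.55, 12.56 and 12.76 in HET 1 to HET 5, and 12.67, 12.75, 12.91 and 12.75 in WT 1 to WT 4. The lowest values belonged to KO 2 and KO 3, but KO 5 was above 3 of the 4 WT arrays. Its change in KO against WT was -0.13 (SE 0.10, interval -0.33 to 0.08, adjusted p = 0.678). Ddit3, which encodes the pro-apoptotic factor CHOP, had 9.46, 9.26, 9.43, 9.23 and 9.47 in KO 1 to KO 5, 9.44, 9.58, 9.45, 9.29 and 9.36 in HET 1 to HET 5, and 9.37, 9.43, 9.39 and 9.61 in WT 1 to WT 4. The groups overlapped, with KO minus WT at -0.09 (SE 0.08, adjusted p = 0.747).

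Trib3, a pseudokinase induced by ATF4 and CHOP, gave 7.19, 7.13, 7.35, 7.28 and 7.34 in KO 1 to KO 5, 7.75, 7.28, 7.15, 7.30 and 7.39 in HET 1 to HET 5, and 7.16, 7.05, 7.33 and 7.76 in WT 1 to WT 4. HET 1 and WT 4 stood above the other 12 arrays. In KO against WT the change was -0.14 (SE 0.13, adjusted p = 0.779) and KO minus HET -0.16 (SE 0.12), and KO minus WT turned to 0.13 in females alone and to 0.03 without WT 4. Atf6 changed by -0.00 in KO against WT, Chac1, a glutathione-degrading enzyme, by -0.09 and Asns, asparagine synthetase, by 0.04.

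In the 9 genes of translocation, signal peptide cleavage and COPII export 0 passed, and 8 were negative in KO against WT, with a median of -0.03. Sec11c is a catalytic subunit of the signal peptidase. Its values were 11.71, 11.94, 11.88, 11.89 and 11.87 in KO 1 to KO 5, 11.91, 11.96, 11.84, 11.90 and 11.93 in HET 1 to HET 5, and 11.97, 11.99, 12.03 and 12.02 in WT 1 to WT 4. All KO and all HET arrays were below all WT arrays, which was seen for 1 of 32 members in KO against WT and in HET against WT. Of all genes tested, 6.51% had groups that did not overlap, in either direction, in KO against WT and 1.50% in HET against WT. For Sec11c KO minus WT was -0.14 (SE 0.06, interval -0.27 to -0.02, unadjusted p = 0.0306, limma adjusted p = 0.312) and HET minus WT was -0.09 (SE 0.06, adjusted p = 1). In KO against HET 0 members had groups that did not overlap, against 1.43% of all genes.

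Sec63, which helps chains enter the Sec61 channel, had 10.38, 10.38, 10.66, 10.27 and 10.34 in KO 1 to KO 5, 10.47, 10.57, 10.63, 10.17 and 10.31 in HET 1 to HET 5, and 10.30, 10.28, 10.32 and 10.18 in WT 1 to WT 4. KO 3, HET 2 and HET 3 were high, and WT arrays lay within the range of the others. KO minus WT and HET minus WT were both 0.18 (SE 0.10 and 0.09, adjusted p = 0.458 and 1). The remaining subunits stayed close to 0. In KO against WT the channel subunits Sec61a1 and Sec61b changed by -0.03 and -0.01, the translocon-associated Ssr1 and Ssr3 by -0.03 and -0.04, the signal peptidase subunits Spcs1 and Spcs2 by -0.02 and -0.12, and the COPII coat gene Sec24d by -0.06. For Spcs1 the spread within groups was the smallest of the members, an SD of 0.05, and the SE of its change was 0.05.

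**Figure D3:**
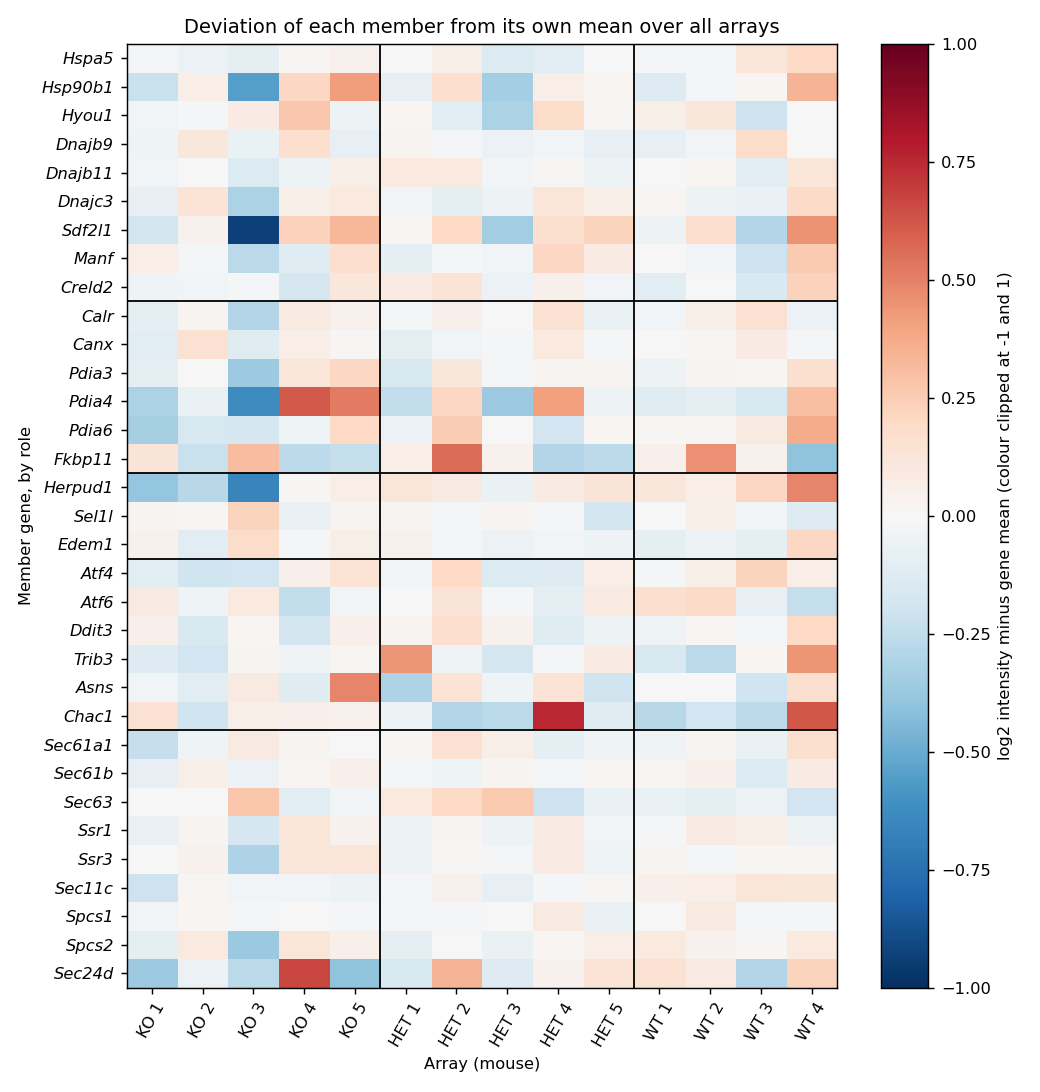
Deviation of each of the 33 members (rows, by role) from its own mean over the 14 arrays (columns, KO, HET, WT), in log2 units, with blue below and red above the mean. KO 3 is the lowest array for 13 of 33 members and WT 4 the highest for 13 of 33. The fewest members lie above their own mean in HET 3 (7), KO 1 (8) and KO 3 (11), and the most in KO 5 and WT 4 (24 in each).

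The mean over the 33 members was 10.60, 10.65, 10.55, 10.73 and 10.76 in KO 1 to KO 5, 10.67, 10.77, 10.61, 10.73 and 10.68 in HET 1 to HET 5, and 10.67, 10.71, 10.65 and 10.82 in WT 1 to WT 4. The groups overlapped, with WT 4 highest and KO 3 lowest. Group means were 10.66 ± 0.09 in KO mice, 10.69 ± 0.06 in HET mice and 10.71 ± 0.07 in WT mice (SD). KO minus WT was -0.05, or 96.3% of the WT level, HET minus WT was -0.02 and KO minus HET was -0.03, each less than the SD within a group. No test was made on this mean, since the members were chosen with earlier results known. By role, KO minus WT was -0.12 for ER-associated degradation, -0.07 for lectin chaperones and isomerases, -0.05 for the BiP system, -0.04 for translocation and export and -0.03 for the stress factors. The BiP system was at 0.01 without KO 3 or without WT 4, and the stress factors were at 0.03 without WT 4. In ER-associated degradation 2 of the 3 members were positive and the median change was 0.02, with Herpud1 at -0.52. In RNA from sorted cells, fewer cells of a kind and less RNA per cell cannot be told apart.

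KO 3 was the lowest of the 14 arrays for 13 of 33 members (39.4%), against 16.9% of all genes tested, while it was the highest for 23.1% of all genes and 2 members. Over all genes tested, its median correlation with the other arrays was the lowest, 0.979, against 0.984 to 0.99 for the others. WT 4, the 1 male among the WT mice, was the highest for 13 members (39.4%), against 15.9% of all genes. Without these 2 arrays, a choice made after seeing the data, KO minus WT of the member mean was 0.01, and 14 of 32 members were negative with a median of 0.02, the same median as over all genes. Without KO 3 alone the difference in the mean was -0.03 and without WT 4 alone -0.02. In males the member mean was 0.05 above that in females with group held, and with sex held KO minus WT was -0.07.

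**Figure D4:**
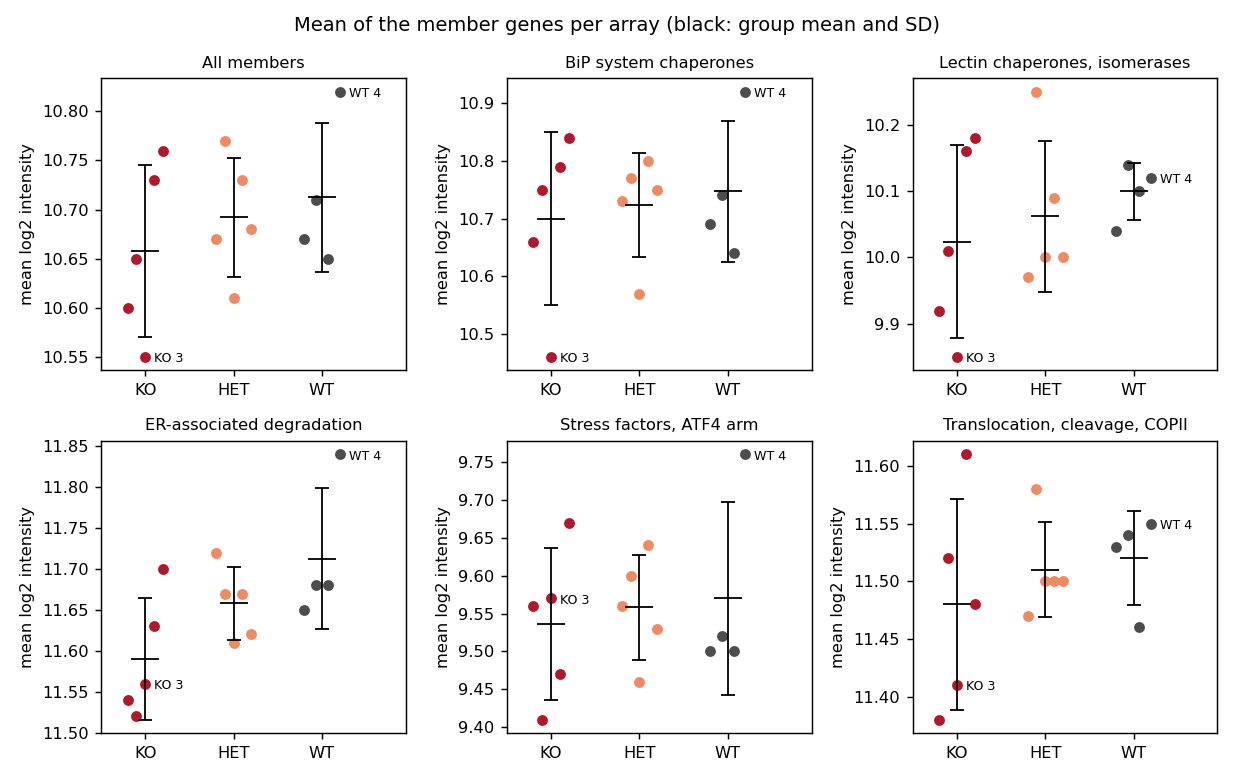
Mean log2 intensity of all 33 members and of the 5 role groups in each array, KO left, then HET and WT, with points for mice and black bars for the group mean and SD, and each panel with its own axis. Over all members the KO arrays lie between 10.55 and 10.76, the HET arrays between 10.61 and 10.77 and the WT arrays between 10.65 and 10.82, and the highest WT point is WT 4.

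Several probe sets read most of these genes. Of 81 probe sets of the members, 73 passed the filter, and 22 members had more than 1. Of the 41 that were not the brightest, 30 had the sign of the brightest in KO against WT and 11 the opposite sign, 0 of these with an unadjusted p under 0.05. Of all member probe sets tested on their own, 0 passed in KO against WT and 1 in the slope, the second one of Herpud1, while 3 had an unadjusted p under 0.05 in KO against WT. Over all probe sets tested the shares were 0.893%, 1.17% and 9.85%. All 7 members with a full ERSE in the window were negative in KO against WT, between -0.22 and -0.02, with a median of -0.10. Of all 32 members tested, 26 were negative. The other 20 tested members with a window had a median of -0.05. Herpud1 was counted among them, although its window ended before the last base of a possible ERSE. Without KO 3 and WT 4, Hspa5 was at -0.02, Pdia6 at -0.01 and Calr at -0.04, and without KO 3 alone Calr was at 0.00.

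Beyond the members, 118 further genes of the pathway were listed, of which 108 were tested. In KO against WT 0 passed and 6 had an unadjusted p under 0.05 (limma), or 5.56% against 13.1% of all genes. Their changes were negative for 69 genes and positive for 39, with a median of -0.04. In HET against WT 0 passed and 0 had an unadjusted p under 0.05, against 2.74% of all genes, with 60 negative. In KO against HET 0 passed and 3 had such a p (2.78% against 6.39% of all genes), and in the slope 0 passed and 10 did (9.26% against 14.2%). The smallest adjusted p in KO against WT was that of Ero1b, an oxidase that recharges disulphide isomerases, at -0.20 (SE 0.05, adjusted p = 0.0772). Tusc3, an oxidoreductase subunit of the oligosaccharyltransferase, was at -0.53 (SE 0.15, adjusted p = 0.0929), and its slope had the smallest adjusted p, 0.0702.

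The sensors and their regulators gave no call, with 8 of 10 negative in KO against WT and a median of -0.12. Ern1, which encodes IRE1, was at 0.47 (SE 0.20, adjusted p = 0.332) and Ppp1r15a, the phosphatase subunit that ends the block of translation, at -1.03 (SE 0.55, adjusted p = 0.469). Ern1 was dim, with a mean of 6.91 in KO mice and of 6.35 in WT mice, below the filter at 6.43. Xbp1 is the transcription factor that IRE1 activates. It had 10.28, 10.89, 10.80, 11.05 and 10.90 in KO 1 to KO 5, 10.77, 10.83, 10.76, 10.62 and 10.76 in HET 1 to HET 5, and 10.79, 10.82, 10.94 and 11.21 in WT 1 to WT 4. KO 1 lay below all other arrays and WT 4 above them, the groups overlapped, and KO minus WT was -0.15 (SE 0.14, interval -0.45 to 0.16, adjusted p = 0.782). It turned to 0.07 in females alone and to 0.03 without WT 4.

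Further targets of ATF4 and CHOP were negative for 11 of 19 genes, with a median of -0.06. The amino acid transporter Slc7a5 was at -0.28 (SE 0.10, adjusted p = 0.237) and the serine enzyme Shmt2 at -0.21 (SE 0.10, adjusted p = 0.4). Other folding and glycosylation genes were negative for 15 of 25 and other degradation genes for 10 of 17, where Derl3 was at -0.29 (SE 0.14) and Syvn1, the ligase HRD1, at -0.17 (SE 0.08). Of the other transport genes 25 of 37 were negative, with Tmed10 at -0.14 (SE 0.06) and Golgb1 at -0.22 (SE 0.11).

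Plasma cells make the most of these gene products, so their markers were set beside them. Of 11 plasma cell and plasmablast markers with a probe set 10 were tested, and Tnfrsf17 was not above the filter. Their mean lay between 10.56 and 10.82 in KO arrays, 10.64 and 10.86 in HET arrays, and 10.69 and 10.82 in WT arrays. Of these 10, 8 were negative in KO against WT, with a median of -0.06. Sdc1, the plasma cell surface proteoglycan CD138, rose by 0.81 (SE 0.19, adjusted p = 0.0404), with means of 8.67 ± 0.22 in KO mice and 7.93 ± 0.22 in WT mice (SD). Irf4, a transcription factor of plasma cells, was at -0.30 (SE 0.08, adjusted p = 0.0842). Among germinal centre markers Rgs13, a regulator of G protein signalling, fell by 0.62 (SE 0.12, adjusted p = 0.018), and Fas, the CD95 of the sort, was at -0.22 (SE 0.09, adjusted p = 0.323). B lineage genes were negative for 5 of 6, the 2 with the smallest p being Cd79a at -0.18 (SE 0.06, adjusted p = 0.144) and Cd22 at -0.19 (SE 0.07, adjusted p = 0.216), a signalling chain and an inhibitor of the B cell receptor.

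Among markers of other cells Pecam1, the endothelial adhesion protein CD31 that other blood cells also carry, fell by 0.56 (SE 0.13, adjusted p = 0.0389), with means of 7.68 ± 0.22 in KO mice and 8.23 ± 0.11 in WT mice (SD). It was the 1 of 7 stromal markers above the filter. For naive, marginal zone and follicular B cells Cd1d1 was at 0.64 (SE 0.25, adjusted p = 0.28) and Fcer2a, or CD23, at -0.36 (SE 0.16, adjusted p = 0.357), and the mean over 8 markers lay between 8.52 and 9.17 in KO arrays, 8.52 and 9.10 in HET arrays, and 8.70 and 8.94 in WT arrays. The T cell genes Cd2 and Cd8a were at -0.42 (SE 0.16, adjusted p = 0.259) and 0.04 (SE 0.21). The macrophage genes Cd68 and C1qb were at -0.34 (SE 0.13, adjusted p = 0.229) and 0.45 (SE 0.59), and the dendritic cell genes Flt3 and Bst2 at -0.35 (SE 0.15, adjusted p = 0.33) and -0.05 (SE 0.14). Cd1d1 and C1qb were dim in WT mice, with means of 6.41 and 6.42, below the filter at 6.43. The neutrophil genes S100a9 and S100a8 were at -0.23 (SE 0.83) and -0.18 (SE 0.78), and Tfrc, of the erythroid list, at -0.05 (SE 0.05). The part of cell composition in the values of the members was not tested.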

How the data were processed

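Per the labels' protocols, RNA of sorted cells from single mice was amplified and hybridised to 1 array per mouse. The values the authors deposited are log2 intensities for 45101 probe sets, 64 of them controls, and the submitters' processing notes name RMA, without a version. RMA sets all arrays to 1 distribution, so a shift of most genes would not be seen, and it compresses changes of dim probe sets.

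The platform annotation names 1 gene for 34945 probe sets and several for 932. Each gene was read from its brightest single-gene probe set, and genes with a mean above 6.43, the median over probe sets other than controls, were tested. The fit was limma 3.58.1 in R 4.3.3, with terms for group and sex over the 14 arrays, Benjamini-Hochberg adjusted over 10225 genes, and it was tested on simulated data. The number of arrays limits the precision. Members and lists were chosen with earlier results of these data known. Named with all their values are Hspa5, Xbp1, Crebbp, each member that passed, and in each role the 2 with the smallest p in KO against WT and the 1 in each other contrast. Of the other lists, those that passed or the 2 with the smallest p are named. Alternatives covered the filter, the probe set, the normalisation, the sex term, limma's options, the replicate number as a block and each array left out. Promoter sequences are RefSeq's for GRCm38.p6. Protein sequences were not used here.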

Additional observations from a re-analysis of the deposited data

Results flagged for a closer look

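In 105 groups of arrays, 3 for each member and for Xbp1 and Crebbp, the gap between the highest or lowest array and the nearest other was divided by the range of the group. The gap was large for 9 of them, and chance gives about 1 in 20. WT 4 stood above the other WT arrays for Pdia4 (6.91 against 6.51 in the nearest, a gap of 0.892 of the range), Edem1 (11.61 against 11.35, 0.851) and Chac1 (7.98 against 7.18, 0.895). HET 4 stood above the other HET arrays for Chac1 (8.12 against 7.32, 0.768). HET 3 lay below the other HET arrays for Herpud1 (11.41 against 11.57, 0.764) and HET 5 for Sel1l (11.88 against 12.05, 0.779). KO 3 lay above the other KO arrays for Sec63 (10.66 against 10.38, 0.713) and below them for Ssr3 (12.02 against 12.33, 0.733). KO 1 lay below the other KO arrays for Sec11c (11.71 against 11.87, 0.711).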

How the results depend on the processing

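In KO against WT the number of members that passed was 1, Herpud1, in place of 0 with the mean of all probe sets of a gene (adjusted p = 0.0426), with limma's trend and robust options (0.036), with the replicate number as a block (-0.54, adjusted p = 0.0499) and at an adjusted p under 0.1. With 1 array left out it was 0 to 1. In the slope over floxed alleles it was 0 in place of 1 with no filter on low genes, with the most variable probe set, with no sex term, in females alone, with array weights and, added after seeing the data, without KO 3 and WT 4. The slope of Herpud1 itself was -0.26, -0.26 and -0.24 in the first 3 of these (adjusted p 0.0536 to 0.0748), so its size stayed near -0.26, and it was -0.21, -0.18 and -0.13 in the others. With 1 array left out the count was 0 to 1. HET against WT and KO against HET gave 0 under every alternative run, and the slope has no fit with only the groups compared. For Herpud1 the KO minus WT change ran between -0.66 and -0.24 over 28 alternatives, adjusted p 0.0143 to 0.44. The cause of these differences was not tested.

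The same-numbered arrays of different groups shared only a number. The correlations of their deviations ran between -0.17 and 0.38 over 13 pairs, 9 of them over 0.1, and in 8 the first array correlated best with its own number. These are a hint that numbers go together, but in none of the 3 contrasts was every pair over 0.1, and the labels give the number no meaning, so the block stayed an alternative.

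KO minus WT of the member mean ran between -0.08 and -0.02 with 1 array left out, HET minus WT between -0.04 and 0.01 and KO minus HET between -0.06 and 0, and with the median of the members KO minus WT was 0.01 and HET minus WT 0.05. KO minus WT turned for 5 named genes, each under some alternatives. It was 0.18 for Sdf2l1 and 0.07 for Xbp1 without KO 3 and WT 4, 0.13 for Trib3 and 0.07 for Xbp1 in females alone, 0.03 for Trib3 and Xbp1 without WT 4, and 0.00 for Calr without KO 3. With 1 array left out it ran between -0.15 and 0.00 for Calr and between -0.22 and 0.03 for Trib3. For Sel1l it was -0.01 with the mean of its probe sets, -0.07 on the most variable one, which was dim, -0.03 with array weights and -0.06 without KO 3 and WT 4. In KO against WT 20 of 32 members were negative in females alone, 21 with array weights and 18 without KO 3, with medians of -0.06, -0.02 and -0.02. In the slope 14 were without KO 3 and WT 4, with a median of 0.01. Over all genes, the 249 calls in KO against WT became 117 with a filter at the 75th percentile, 98 with only the groups compared, 79 in females alone and 75 without KO 3 and WT 4, and also 281 with limma's trend and robust options, 317 with array weights and 336 with no sex term.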

Other observations

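Heat shock genes of the cytosol and mitochondria answer unfolded proteins outside the ER. Their mean over 11 genes was highest in KO 5, at 11.20, with the other 4 KO arrays between 10.32 and 10.55. It lay between 10.18 and 10.58 in HET arrays, and between 10.21 and 10.72 in WT arrays, WT 4 being the highest. None of the 9 tested genes passed in KO against WT by limma (0 calls), with 6 positive and a median of 0.01. Bag3, a co-chaperone of Hsp70, was at 0.44 (SE 0.21, adjusted p = 0.412), and Hspe1, a mitochondrial co-chaperonin, at 0.05 (SE 0.06, adjusted p = 0.814). Bag3 was dim, with means of 6.86 in KO, 6.39 in HET and 6.36 in WT mice, so it passed the filter at 6.43 through its KO arrays.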
